A study of Mus musculus with 100 samples.

Results

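The 9 genes Zscan4c, Zscan4d, Zscan4f, Tcstv1, Tcstv3, Zfp352, Dppa2, Dppa4 and Dppa5a were taken by name from a table of 25965 genes measured by RNA sequencing (RNA-seq) in 18 mouse libraries. The first 6 are transcripts of the 2-cell embryo that reappear in rare cells of pluripotent cultures, and the other 3 carry the name developmental pluripotency associated. The libraries came as 3 biological replicates of each of 6 groups. Female mouse embryonic fibroblasts (MEFs) were F1 hybrids of an i4F-BL6 mother (C57BL/6J background, with a doxycycline-inducible cassette of Oct4, Sox2, Klf4 and c-Myc) and a CAST (Mus musculus castaneus) father. The induced pluripotent stem cells (iPSCs) of the same cross comprise F KSR2 and F KSR4, which are female, and the male M KSR3 and M KSR5, and every line still carries the cassette. They were reprogrammed with doxycycline in medium with Knockout Serum Replacement (KSR) and LIF, each from 1 picked colony moved onto feeder cells, and were kept without doxycycline afterwards. TX 2i ESCs are the female embryonic stem cell line TX1072, also from a BL6 female and a CAST male, grown in serum and LIF with the inhibitors CHIR99021 and PD0325901 (2i). Each line is a single clone, so a difference between lines cannot be told apart from a difference between clones, and serum, 2i and the origin of the cells change together between the KSR-iPSCs and the TX 2i ESCs.

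In the mouse embryo the zygotic genome is switched on at the 2-cell stage, and a burst of transcripts then includes the Zscan4 genes, the Tcstv genes and Zfp352. A small and changing fraction of pluripotent cells in culture passes through a state that expresses the same transcripts. Dppa2 and Dppa4 are SAP-domain proteins that bind each other and DNA and activate Dux, a homeodomain factor that in turn activates Zscan4 and its companions. Dppa5a is unrelated in structure. It is an RNA-binding protein of the KH family and a common mark of pluripotent and germ cells, and is not counted among the regulators of the 2-cell programme.

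The 3 Zscan4 members are near copies of each other, and how far their reads can be told apart bears on every value given for them. Zscan4c, Zscan4d and Zscan4f encode zinc finger proteins with a SCAN domain that act at telomeres, and they lie within 1 cluster on chromosome 7 (GRCm38) at 11005722 to 11010547, 11161374 to 11166182 and 11397915 to 11402741. The first base of TATAAA lies 54, 65 and 31 bases before the RefSeq start sites of Zscan4c, Zscan4d and Zscan4f. The RefSeq start sites of Zscan4c and Zscan4d lie inside the spans given above. Counted to the ends of those spans, the distance is the same in all 3. Stretches of 200 bases upstream of the start sites, aligned to each other on TATAAA, were taken from the RefSeq promoters of GRCm38.p6 (chr7:11005517-11005716 on the plus strand, chr7:11166188-11166387 on the minus strand and chr7:11397710-11397909 on the plus strand). They are given 5′ to 3′ with the letters TATAAA in capitals, and each ends short of the start site.
Zscan4c: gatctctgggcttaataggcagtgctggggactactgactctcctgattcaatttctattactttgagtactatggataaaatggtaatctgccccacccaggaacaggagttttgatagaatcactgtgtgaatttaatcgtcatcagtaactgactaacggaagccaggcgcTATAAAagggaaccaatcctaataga
Zscan4d: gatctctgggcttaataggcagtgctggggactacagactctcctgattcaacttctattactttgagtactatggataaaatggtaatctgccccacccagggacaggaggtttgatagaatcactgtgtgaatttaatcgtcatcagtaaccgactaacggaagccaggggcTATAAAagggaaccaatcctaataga
Zscan4f: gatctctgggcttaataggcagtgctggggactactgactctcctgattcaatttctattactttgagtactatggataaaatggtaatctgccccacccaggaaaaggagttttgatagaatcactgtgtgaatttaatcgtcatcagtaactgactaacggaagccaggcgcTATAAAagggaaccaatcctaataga
Zscan4c and Zscan4f differed at 1 of the 200 bases, Zscan4c and Zscan4d at 6, and Zscan4d and Zscan4f at 7. All 3 hold TATAAA, which 13.6% of the 32851 promoters in that table hold on either strand within their 300 bases, and the Zfp352 promoter has no match. The RefSeq table matched 4 of the 9 genes. Of the 50-base windows in the GENCODE M21 transcripts, 85.5% of those of Zscan4c, 86.8% of Zscan4f and 49.6% of Zscan4d also occur in another gene, mostly of the same cluster. The share was 15.0% for Tcstv1 and 31.4% for Tcstv3, neighbours of each other in a repeated family on chromosome 13, and 7.1% for Zfp352, a zinc finger gene on chromosome 4. How reads that fit several genes were counted is not given in the sources used here, so the split of reads between Zscan4c, Zscan4d and Zscan4f is uncertain. Their sum does not depend on that split, but copies outside it share windows too. Zscan4-ps2 holds 71.4% of the 50-base windows of Zscan4c and 77.1% of those of Zscan4f, so the sum is uncertain as well.

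The deposited values are log2 RPM, reads on a gene scaled to a common library total without regard to gene length, and whole reads could be recovered from them. A library held between 13183036 and 17921280 reads on genes. The label of each cell type was checked against its markers: the 10 pluripotency markers summed to 3217 to 6364 RPM in the pluripotent libraries and to 70.9 to 119 RPM in the MEFs, and the 15 fibroblast markers to 67.3 to 346 RPM and to 25600 to 38270 RPM. One library stood apart. F KSR4 replicate 2 was the lowest of the 15 pluripotent libraries at 2953 of 9184 expressed genes (value above 2 in each of the other 14), against 187 to 1540 genes for any other library. Its pluripotency markers summed to 3217 RPM, below the 3566 to 6364 RPM of the other 14, with 4 of 10 below every other library (Zfp42, Tdgf1, Gdf3 and Utf1), while Pou5f1 lay within their range. Results that rest on it are given with and without it.

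The 2-cell-like transcripts were absent from the MEFs and scarce in every pluripotent group. All 6 genes had 0 reads in all 3 MEF libraries, which allows at most 3 reads per library. In the 15 pluripotent libraries they had 454 reads together. Of the 90 pairs of a gene and a library, 28 had 0 reads, 30 had 1 to 3 and 32 had more, and the highest single count was 31 reads. Every pluripotent library had a read of at least 1 of the 6 genes and 4 libraries had reads of all 6. These are bulk libraries, in which few cells with much of a transcript and many cells with little cannot be told apart.

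The sum over the 6 genes differed between replicates of a line as much as between lines. In F KSR2 it was 1, 8 and 59 reads, in F KSR4 77, 4 and 2, in M KSR3 15, 40 and 19, in M KSR5 67, 70 and 14, and in TX 2i ESCs 7, 2 and 69. Thus 5 libraries from 4 of the 5 groups held 342 of the 454 reads, and 6 libraries had 8 reads or fewer. On the RPM scale the group means were 2.81 ± 1.74 for M KSR5, 1.63 ± 2.39 for TX 2i ESCs, 1.53 ± 2.35 for F KSR4, 1.36 ± 1.94 for F KSR2 and 1.33 ± 0.634 for M KSR3 (SD, n = 3), so the SDs exceeded the mean in 3 of 5 groups and the ranges of all 5 groups overlapped. F KSR4 replicate 2 had reads of Tcstv3 alone, and without it the F KSR4 mean was 2.19 RPM over 2 libraries.

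**Figure D1:**
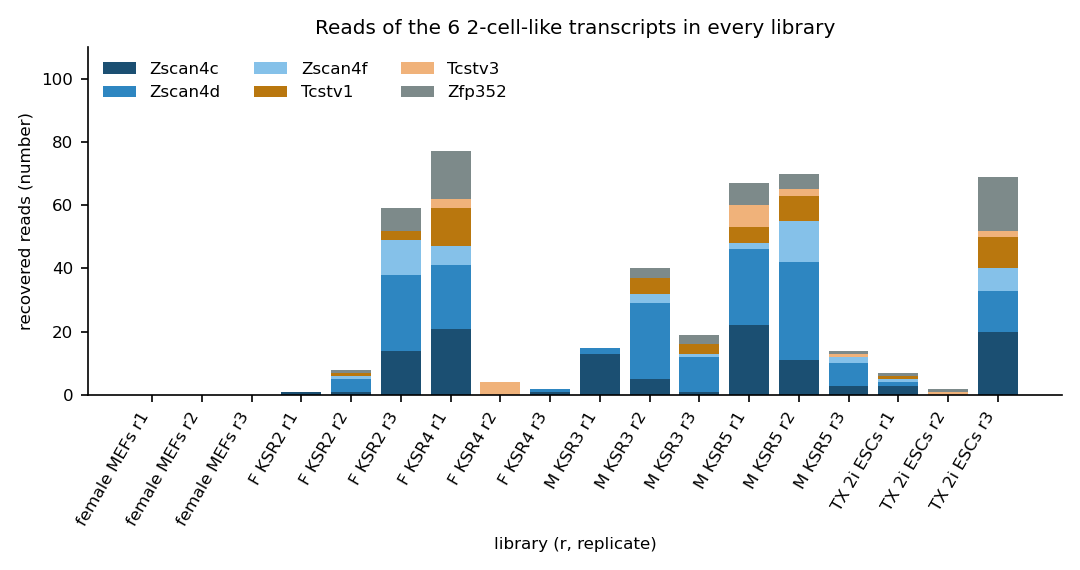
Recovered reads of Zscan4c, Zscan4d, Zscan4f, Tcstv1, Tcstv3 and Zfp352 (stacked bars, y axis, number of reads) in each of the 18 libraries (x axis; r, replicate). The MEF libraries have 0 reads, and 5 pluripotent libraries hold 59 to 77 reads each beside replicates of the same line with as few as 1.

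Zscan4d had the most reads, 162 over the 15 pluripotent libraries. Its counts were 0, 4 and 24 in F KSR2, 20, 0 and 1 in F KSR4, 2, 24 and 11 in M KSR3, 24, 31 and 7 in M KSR5, and 1, 0 and 13 in TX 2i ESCs. M KSR5 was the only line with more than 3 reads in every replicate, and 3 libraries of the other groups had none. Zscan4c had 116 reads: 1, 1 and 14 in F KSR2, 21, 0 and 1 in F KSR4, 13, 5 and 1 in M KSR3, 22, 11 and 3 in M KSR5, and 3, 0 and 20 in TX 2i ESCs. Zscan4c and Zscan4d were thus high in the same libraries apart from M KSR3, where replicate 1 held 13 reads of Zscan4c and 2 of Zscan4d and replicate 2 held 5 and 24. The other 4 were lower still. Zfp352 had 61 reads with a median of 1 per library and at most 17, Tcstv1 48 with at most 12, Zscan4f 47 with at most 13, and Tcstv3 20 with at most 7. Zscan4f was without a read in 5 of the 15 libraries, Zfp352 in 4, Tcstv1 in 6 and Tcstv3 in 8. Per kilobase of exon the mean levels over the 15 libraries were 0.269 RPM for Zscan4d, 0.196 for Zscan4c, 0.131 for Tcstv1, 0.104 for Zfp352, 0.0962 for Tcstv3 and 0.0925 for Zscan4f, with SDs of 0.126 to 0.272 RPM per kilobase, so this order is not separated from the spread between libraries.

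Of the 6 transcripts, 5 rose and fell together across the pluripotent libraries, and Tcstv3 followed them less closely. Over the 15 libraries the 15 pairs of genes had Pearson correlations of 0.27 to 0.95 on the log2 scale with a median of 0.75, and after the mean of each group was taken out they had 0.20 to 0.97 with a median of 0.76. The 10 pairs without Tcstv3 had 0.71 to 0.95. The 5 pairs with Tcstv3 had 0.27 to 0.50, and 0.42 to 0.68 without F KSR4 replicate 2, where it alone had reads. These are descriptions of 15 libraries in which the counts are small and the Zscan4 genes share reads. Zscan4d and Tcstv1, on different chromosomes, correlated at 0.85, and at 0.84 without F KSR4 replicate 2. The 5 libraries with 59 reads or more in the sum had 13 to 31 reads of Zscan4d and 3 to 12 of Tcstv1. Both genes are part of that sum, so they were bound to be high there. M KSR3 replicate 2, outside these 5, had 24 and 5 reads.

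Against the MEFs, 5 of the 9 genes were high enough for testing (more than 0 on the log2 scale in 3 or more libraries), and 4 of them were higher in the pluripotent groups: Dppa5a, Dppa4, Dppa2 and Zscan4d. All 5 passed the filter through the pluripotent libraries alone. Zscan4c, Zscan4d, Dppa4 and Dppa5a had 0 reads in the MEFs and could not come out lower, so their direction was fixed beforehand. In this comparison 42.1% of the 14632 genes tested were called higher and 74.6% were called in either direction (limma, Benjamini-Hochberg adjusted p under 0.05), so a count of 4 is read against a background in which most genes changed. The median difference over all genes was 0.212, small beside those of the members. The 3 Dppa genes did not overlap between the groups, as 49.7% of all genes did not. Zscan4d differed by 2.58 (SE 1.04, log2 scale, adjusted p = 0.0334) and Zscan4c by 2.17 (SE 1.07, adjusted p = 0.0760), with the MEF value held at 0.9 read. The mean of Zscan4d over the pluripotent libraries was at least 3.71-fold above the level of 3 reads in a MEF library, and that of Zscan4c at least 2.71-fold. The Zscan4d call was lost when any 1 MEF library was left out (adjusted p = 0.0845 to 0.101), when 1 RPM was added before the logarithm (0.0848) and when all genes were tested (0.0662). Zscan4f, Tcstv1, Tcstv3 and Zfp352 did not pass the filter, and the 15 pluripotent libraries overlapped the MEFs at 0 reads for all 6.

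Dppa2 and Dppa4 lie next to each other on chromosome 16, Dppa4 at 48283735 to 48294292 and Dppa2 at 48310477 to 48319723, with 16184 bases between them and both on the plus strand. Dppa4 had 0 reads in each MEF library and Dppa2 had 3, 0 and 3. In the pluripotent libraries Dppa2 was at 120, 125 and 124 RPM in F KSR2, at 124, 20.4 and 171 RPM in F KSR4, at 99.9, 126 and 133 RPM in M KSR3, at 135, 166 and 150 RPM in M KSR5, and at 161, 80.4 and 276 RPM in TX 2i ESCs. F KSR2 was the tightest group and TX 2i ESCs the widest once F KSR4 replicate 2 was set aside. Dppa4 was at 129, 117 and 105 RPM in F KSR2, at 128, 61.1 and 125 RPM in F KSR4, at 117, 122 and 124 RPM in M KSR3, at 166, 164 and 158 RPM in M KSR5, and at 115, 121 and 146 RPM in TX 2i ESCs. All 3 libraries of M KSR5 lay above every other pluripotent library.

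The mean of Dppa2 over the pluripotent libraries was 1230-fold that of the MEFs, with a counting interval of 565 to 3352 (exact Poisson, 95%, from 6 MEF reads). Dppa4 was at least 769-fold above the level of 3 reads in a MEF library. In the fit Dppa2 was 10.10 higher (SE 0.48, log2 scale, adjusted p = 4.41e-12) and Dppa4 11.29 higher (SE 0.18, adjusted p = 1.06e-18), with the latter set by the 0.9 read at which 0 is held. By size of the difference they ranked 83 and 35 among the 14632 genes. Per kilobase of exon Dppa4 stood at 76.1 ± 15.6 RPM and Dppa2 at 54.8 ± 22.1 RPM over the 15 libraries (SD), and the ranges of the 2 genes overlapped.

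**Figure D2:**
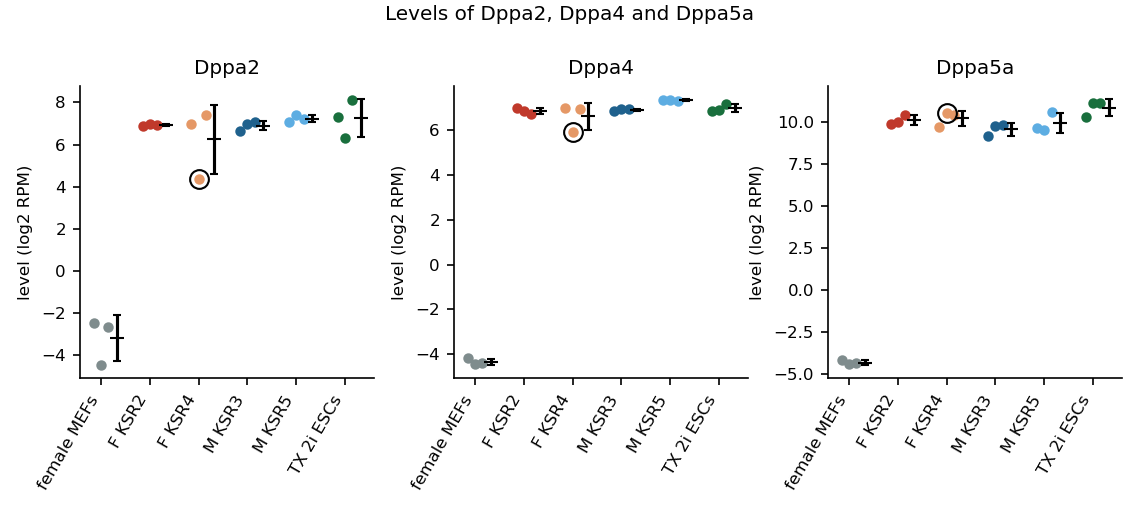
Level (log2 RPM, y axis) of Dppa2, Dppa4 and Dppa5a in each library (points) by group (x axis), with the group mean and SD (bar, n = 3) beside the points. MEF points near -4.3 hold 0 reads, the ringed point is F KSR4 replicate 2, at 4.35 for Dppa2 and 5.93 for Dppa4, and the pluripotent libraries lie far above the MEFs for all 3 genes.

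F KSR4 replicate 2 was low for both partners and by different amounts. Its Dppa2 level of 20.4 RPM was 6.34-fold below the median of the other 14 pluripotent libraries and 3.94-fold below the lowest of them. Its Dppa4 level of 61.1 RPM was 2.04-fold below the median and 1.73-fold below the lowest. Among the 9184 expressed genes the gap of Dppa2 below the next lowest library, 1.98 on the log2 scale, ranked 23, and that of Dppa4 was 0.79, with 6.27% of genes having a larger one. Dppa5a went the other way in the same library, at 1460 RPM or 1.48-fold the median of the other 14. The sum of the formative and primed epiblast markers was also lowest there (165 RPM against 287 to 1270 RPM). Of these 6 markers, 2 were below every other library (Dnmt3a and Dnmt3b), and the rest lay within the range of the others. The 31 repressors of the 2-cell programme named below summed to 5887 RPM against 7605 to 11120 RPM, with 14 of them below every other library, as 2953 of the 9184 expressed genes were. The 15 fibroblast markers summed to 131 RPM, within the range of the others. Of these, 1 was above every other library (Mmp2, 4.96 against at most 4.66 on the log2 scale), 1 below (Fbn1, 0.73 against at least 1.24), and Lum and S100a4 were at 0 reads. The part of these differences in the Dppa2 level was not tested.

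Dppa5a, on chromosome 9 from 78367052 to 78368177 on the minus strand, was the most abundant of the 9 genes and the one with the largest difference from MEFs of all genes tested. It had 0 reads in the MEF libraries. Its level was 945, 1027 and 1377 RPM in F KSR2, 835, 1460 and 1380 RPM in F KSR4, 563, 859 and 898 RPM in M KSR3, 811, 740 and 1552 RPM in M KSR5, and 1260, 2274 and 2275 RPM in TX 2i ESCs. The pluripotent mean was at least 7395-fold above 3 reads in a MEF library, and the fitted difference was 14.48 (SE 0.23, log2 scale, adjusted p = 1.44e-18). Per kilobase of exon it stood at 1966 ± 838 RPM (SD, n = 15), and its lowest library, at 909.9, was above the highest of Dppa4 at 99.6 and of Dppa2 at 113. Other genes hold 38.6% of its 50-base windows, among them Dppa5b, Dppa5c and processed copies, and 0.0% of its 150-base windows. A part of its reads may thus be assigned to or from them if the reads were 50 bases long.

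Between the KSR-iPSCs and the TX 2i ESCs, Dppa5a was the 1 of 5 tested members that passed. It was lower in the KSR-iPSCs by 0.91 on the log2 scale (SE 0.24, 95% interval of the difference -1.41 to -0.41, adjusted p = 0.0100), where 12.0% of the genes tested were called lower and 23.0% in either direction. The TX 2i mean was 1.87-fold the KSR mean. TX 2i ESCs replicate 1, at 1260 RPM, lay inside the KSR range, whereas 10.2% of genes had groups without overlap, and the call was lost without replicate 2 (difference -0.77, adjusted p = 0.0801) or without replicate 3 (-0.77, adjusted p = 0.0799). Without F KSR4 replicate 2 the difference was -0.95 (adjusted p = 0.00645). The 10 pluripotency markers, of which 3 were lower and 1 higher in the KSR-iPSCs, summed to 3217 to 5009 RPM in KSR libraries and to 5289 to 6364 RPM in TX 2i libraries. Of the 7 primitive endoderm markers 5 were higher in the KSR-iPSCs (33.0 to 419 against 63.2 to 87.1 RPM), as were 6 of the 15 fibroblast markers, with 2 lower (67.3 to 346 against 152 to 207 RPM). The part of these in the Dppa5a difference was not tested.

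Dppa2, Dppa4, Zscan4c and Zscan4d did not pass in the same comparison. Dppa4 differed by -0.05 (95% interval -0.42 to 0.33), Dppa2 by -0.43 (-1.47 to 0.61), Zscan4d by 1.46 (-0.78 to 3.71) and Zscan4c by 0.03 (-2.27 to 2.33), all on the log2 scale as KSR minus TX 2i. The interval of Dppa4 is narrow, whereas those of the Zscan4 genes leave room for differences in both directions. Without F KSR4 replicate 2 the difference was 0.04 for Dppa4 and -0.19 for Dppa2.

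Between the 6 female and 6 male KSR-iPSC libraries none of the 4 members tested passed, by limma on the log2 values or by limma-voom on the recovered reads, and none had an unadjusted p under 0.05. In that comparison 2.87% of the 13609 genes tested were called and the median difference over all genes was -0.114. Female minus male, the log2 difference was -0.47 for Dppa2 (95% interval -1.28 to 0.34), -0.38 for Dppa4 (-0.78 to 0.02), 0.41 for Dppa5a (-0.05 to 0.88) and -1.74 for Zscan4d (-3.83 to 0.35). The Dppa2 difference came down to -0.02 and that of Dppa4 to -0.22 without F KSR4 replicate 2. Both lines of a sex came from 1 embryo, so that an effect of the embryo cannot be told apart from one of sex.

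Among the 10 pairs of pluripotent groups the members gave 2 calls, both of Dppa5a against TX 2i ESCs. The share of all genes called was 1.14% between F KSR2 and F KSR4, 4.48% between M KSR3 and M KSR5, 10.7% and 13.1% for M KSR3 against F KSR2 and F KSR4, 2.82% and 2.34% for M KSR5 against the same lines, and, against TX 2i ESCs, 23.1% for M KSR3, 18.2% for M KSR5, 15.4% for F KSR4 and 12.8% for F KSR2. M KSR3 was lower by 1.30 on the log2 scale (SE 0.30, adjusted p = 0.00478), where 10.6% of genes were called lower, and its libraries did not overlap those of TX 2i ESCs, as 50.3% of genes did not. M KSR5 was lower by 0.94 (SE 0.30, adjusted p = 0.0374), where 8.84% were, and its replicate 3 overlapped them. Without F KSR4 replicate 1 there were 4 calls, and without M KSR5 replicate 1 or 2 or TX 2i ESCs replicate 2 or 3 there was 1. In order of the mean log2 level Dppa5a ran TX 2i ESCs (10.87 ± 0.49), F KSR4 (10.22 ± 0.44), F KSR2 (10.11 ± 0.29), M KSR5 (9.93 ± 0.58) and M KSR3 (9.57 ± 0.37) (SD, n = 3), and no group differed from its neighbour in that order (adjusted p = 0.154 to 0.920).

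For Dppa4 the order was M KSR5 (7.34 ± 0.04), TX 2i ESCs (6.99 ± 0.18), M KSR3 (6.92 ± 0.05), F KSR2 (6.87 ± 0.15) and F KSR4 (6.63 ± 0.61). Neighbours did not differ (adjusted p = 0.310 to 0.934). M KSR5 exceeded the other 4 groups without overlap, by 0.42 over M KSR3 (adjusted p = 0.343), 0.48 over F KSR2 (0.389), 0.71 over F KSR4 (0.106) and 0.36 over TX 2i ESCs (0.310), in pairs where the groups did not overlap for 32.4%, 19.3%, 13.8% and 39.3% of all genes. For Dppa2 the order was TX 2i ESCs (7.26 ± 0.89), M KSR5 (7.23 ± 0.15), F KSR2 (6.94 ± 0.03), M KSR3 (6.89 ± 0.22) and F KSR4 (6.24 ± 1.65), with adjusted p of 0.521 to 0.984 between neighbours. Without its replicate 2 the F KSR4 mean of Dppa2 was 7.19 and that of Dppa4 6.98, which makes F KSR4 the third of both orders.

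Over the 15 pluripotent libraries the Pearson correlation with the sum of the 6 transcripts was 0.40 for each, and without F KSR4 replicate 2 it was 0.37 for Dppa2 and 0.34 for Dppa4. For Dppa5a it was -0.26 and -0.23. With the sum of the 3 Zscan4 genes it was 0.58 for Dppa2 and 0.55 for Dppa4, and without F KSR4 replicate 2 it was 0.41 and 0.33. Dppa2 and Dppa4 themselves correlated at 0.84, and at 0.43 without F KSR4 replicate 2, so the close relation rested on that library. In single libraries high Dppa2 and a high sum did not always come together: TX 2i ESCs replicate 3 had both the highest Dppa2 level (276 RPM) and a 2-cell-like sum of 69 reads, whereas F KSR4 replicate 3, second in Dppa2 at 171 RPM, had 2 reads, and F KSR4 replicate 1, with 77 reads, had 124 RPM. These are descriptions over libraries that come 3 to a line.

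**Figure D3:**
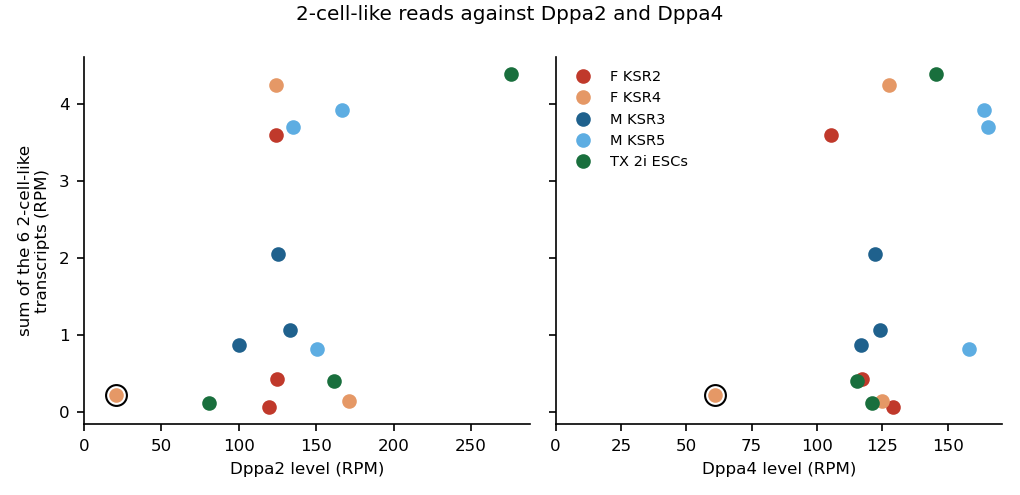
Sum of the 6 2-cell-like transcripts (RPM, y axis) against the level of Dppa2 (left) and Dppa4 (right, both in RPM) in the 15 pluripotent libraries, coloured by group, with F KSR4 replicate 2 ringed. F KSR2 replicate 1 and F KSR4 replicate 1, at 119.7 and 124.1 RPM of Dppa2, had sums of 0.0560 and 4.25 RPM.

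Other transcripts of the 2-cell programme differed widely in level. Of 50 other transcripts of this state that were listed, 32 were in the table and 7 passed the filter. Of these, 6 were higher in the pluripotent groups than in MEFs, as 42.1% of all genes tested were (median log2 difference 3.32, against 0.21 over all genes tested). B020004J07Rik, Gm12794, Gm2016 and Tmem92 had 0 reads in the MEFs and could not come out lower. AU018091 and Arg2 were also below the filter value of 0 there (means of -4.24 and -2.61 on the log2 scale). All 6 thus passed the filter through the pluripotent libraries alone, and the count and the median are partly set by the filter. AU018091 had the largest difference, 11.94 (adjusted p = 1.37e-19), followed by B020004J07Rik with 4.93 (adjusted p = 5.15e-09) and Gm12794 with 3.77 (adjusted p = 0.000791), and the MEFs had 0 or 1 read of each. Ddit4l, which did not pass (-0.10, adjusted p = 0.750), had 120 to 411 reads in the pluripotent libraries and 220 to 315 in the MEFs. AU018091 held 1947 to 4745 reads in every pluripotent library and did not follow the 2-cell-like sum (r = -0.01, n = 15), whereas Gm12794, with a median of 11 reads and a highest of 50 in TX 2i ESCs replicate 3, did (r = 0.85). Between KSR-iPSCs and TX 2i ESCs the closest of the 7 to the threshold was Arg2, with a difference of -1.61 (adjusted p = 0.0606). Between the sexes 1 of 7 passed, again Arg2, the mitochondrial arginase, which was lower in the female libraries by 4.51 on the log2 scale (adjusted p = 0.000802), where 1.28% of genes were lower, and the female and male libraries did not overlap, as 2.81% of genes did not. Arg2 was near the floor in the female lines, with means of -2.59 in F KSR2 (SD 1.36) and -3.6 in F KSR4 (SD 0.9) on the log2 scale. It passed the filter of this comparison through the male libraries alone. This fit counts 6 libraries a sex from 2 lines each, so its p measures the spread between libraries and not between lines or embryos.

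Of the activators upstream of Zscan4 that were listed with Dppa2 and Dppa4, 2 of 3 were in the table. Both were higher in the pluripotent groups than in MEFs, as 42.1% of all genes tested were. Dppa3, a maternal factor that protects DNA methylation in the zygote, was higher by 8.06 (adjusted p = 1.38e-10) and Smarca5, an ISWI chromatin remodeller, by 1.36 (adjusted p = 1.72e-06), both on the log2 scale. Dppa3 had a MEF mean of -3.42, below the filter value of 0, so it passed the filter through the pluripotent libraries alone. Between KSR-iPSCs and TX 2i ESCs the adjusted p was 0.235 for Dppa3 and 0.133 for Smarca5, and between the sexes 0.114 and 0.151. Between the male lines Dppa3 was 2.41 lower in M KSR3 than in M KSR5 (adjusted p = 0.0417), where 4.48% of all genes were called. Dppa4 was 0.42 lower in the same pair and did not pass the test (adjusted p = 0.343). Its groups did not overlap, as those of 32.4% of all genes did not.

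The repressors of the 2-cell programme, which include the KAP1, CAF-1, PRC1.6, SUMO and LSD1 machineries, were present throughout. Of 31, 27 were higher in the pluripotent groups than in MEFs (as 42.1% of all genes were), 2 lower (as 32.5% were) and 2 did not pass (median log2 difference 1.36). Zfp42 (12.49, adjusted p = 1.09e-18), Lin28a (11.43, adjusted p = 6.74e-17) and Rcor2 (3.76, adjusted p = 1.19e-10) had the largest differences. Zfp42 and Lin28a were at 0 reads in the MEFs (mean -4.34 on the log2 scale). They passed the filter through the pluripotent libraries alone and could not come out lower. Zfp42 is a pluripotency marker as well, and Lin28a is an RNA-binding protein of early embryos. Between KSR-iPSCs and TX 2i ESCs 3 were higher in KSR-iPSCs (as 11.0% of all genes were) and 2 lower, with 26 not past the threshold. Lin28a was 1.99 higher (adjusted p = 2.57e-05) and Max, a partner of Myc and of PRC1.6, was 0.69 higher (adjusted p = 0.00173), while Kdm1a, the histone demethylase LSD1, was 0.82 lower (adjusted p = 6.64e-05). Kdm1a was also the 1 of 31 to pass between the sexes, at 0.62 lower in the female libraries (adjusted p = 0.0412), where 2.87% of all genes were called. The fit counts 6 libraries a sex from 2 lines each, and F KSR2 and F KSR4 themselves differed by -0.52 (adjusted p = 0.0806) without overlap.

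The hybrid genome separates maternal (BL6) from paternal (CAST) reads at SNPs, a readout apart from the levels described so far. Dppa2 was read mostly from the maternal allele in every pluripotent library. Its maternal share was 84.9%, 85.6% and 80.9% in F KSR2, 85.4%, 83.5% and 87.9% in F KSR4, 86.3%, 87.5% and 87.0% in M KSR3, 83.3%, 87.7% and 87.3% in M KSR5, and 78.4%, 76.3% and 74.4% in TX 2i ESCs. The depth was 103 to 1047 allelic reads per library, and F KSR4 replicate 2, with 103, had a Wilson 95% interval of 75.2% to 89.4%, so its low level came with the same split as in the other KSR libraries. The rest of chromosome 16 stood at 51.4% to 52.5% maternal in the KSR-iPSCs. Of 7316 autosomal genes with at least 20 allelic reads in every pluripotent library, 59 (0.806%) were above 70% maternal in all 15, Dppa2 among them.

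Dppa4, 16184 bases away, was far nearer to an even split. Its maternal share was 57.6% ± 3.82 in the KSR-iPSCs (SD, n = 12, range 50.3% to 62.3%) and 28.6% ± 2.48 in the TX 2i ESCs (n = 3, range 25.9% to 30.9%), with 350 to 1082 allelic reads per library. The whole of chromosome 16 differed in the TX 2i ESCs: its other genes were 34.6% ± 0.0917 maternal there, and 295 expressed genes of that chromosome had a median level 0.55 higher than in the KSR-iPSCs on the log2 scale, against 0.02 over 8695 autosomal genes. Dppa4 was thus above the rest of its chromosome in the KSR-iPSCs, which stood at 52.0%, and below it in the TX 2i ESCs, and Dppa2, at 85.6% ± 2.15 and 76.4% ± 1.98, was above it in both. The level of Dppa4 in TX 2i ESCs differed from that in KSR-iPSCs by less than the shift of its chromosome, and the part of the chromosome in the levels and shares of Dppa2 and Dppa4 was not tested.

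Dppa5a had a maternal share of 57.9% ± 3.05 in the KSR-iPSCs (n = 12, range 53.5% to 63.8%) and of 42.7% ± 1.33 in the TX 2i ESCs (n = 3, range 41.5% to 44.1%), from 1858 to 8472 allelic reads per library. Here the rest of the chromosome did not move: chromosome 9 was 51.9% ± 0.998 maternal in the KSR-iPSCs and 51.2% ± 0.496 in the TX 2i ESCs, and its median level differed by 0.03 on the log2 scale. The shares of the KSR-iPSCs and TX 2i ESCs did not overlap for any of the 3 Dppa genes. The mean share in TX 2i ESCs minus that in KSR-iPSCs was -9.24 percentage points for Dppa2, -29.0 for Dppa4 and -15.2 for Dppa5a. These differences were singled out after the shares had been seen and are a description of 3 libraries of 1 line beside 12 libraries of 4 lines. The cross was made in 1 direction, so an effect of the parent and an effect of the strain, or of reads mapping better from one strain, cannot be told apart. The 2-cell-like genes had at most 8 allelic reads in a library, and Zscan4c and Zscan4f had none, so no share is given for them.

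**Figure D4:**
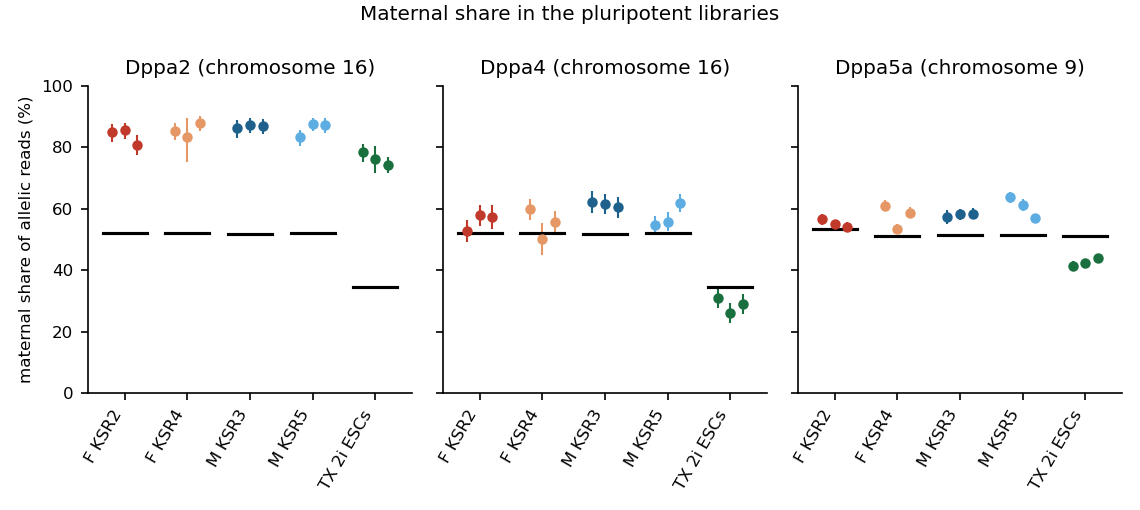
Maternal share of allelic reads (%, y axis) of Dppa2, Dppa4 and Dppa5a in each pluripotent library (points, Wilson 95% intervals) by group (x axis), with the mean share of the other genes on the same chromosome as a black line. Dppa2 lies at 74.4% to 87.9% in all 15 libraries, while Dppa4 and Dppa5a cross from above to below their chromosome's line between the KSR-iPSCs and the TX 2i ESCs.

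For each profile, genes among the 5 whose log2 values followed it most closely over the 15 pluripotent libraries were then named, from the 5308 or 5309 genes searched for a profile (above 0 in 10 or more of them, SD of 0.5 or more). For the sum of Zscan4c, Zscan4d and Zscan4f they were Hmgxb4 (r = 0.88), Spn (0.87), Dscc1 (0.79) and Amigo2 (0.78), which had 0.71 to 0.84 without F KSR4 replicate 2. For Dppa2 they were Gm9788 (0.97), Rexo2 (0.94), Dbnl (0.94) and Cenpb (0.93). Gm9788 shares 27.1% of the 50-base windows of Dppa2, so the 2 may share reads. For Dppa4 they were Exosc4 (0.91), Bop1 (0.90), Zfp428 (0.90) and Adk (0.90). The genes named for Dppa2 and Dppa4 all had their lowest value in F KSR4 replicate 2, and without that library the correlations were 0.69 to 0.90 for Dppa2 and 0.69 to 0.74 for Dppa4. For Dppa5a they were Apoc1 (0.91), Pigp (0.90), Hspb8 (0.89), Fhl1 (0.86) and Idh2 (0.86), with 0.85 to 0.92 without that library. Pigp transcripts hold 12.3% of the 50-base windows of Dppa5a, whereas other genes hold 0.0% of its 150-base windows.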

How the data were processed

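RNA-seq of 18 libraries was used, and the 82 samples of methylation amplicons were not analysed here. Per the labels and the study's methods, the authors trimmed reads with Trim Galore 0.6.1, aligned them to GRCm38 with HISAT2 2.1.0, split them by BL6 and CAST SNPs and quantified genes in SeqMonk. The methods call the deposited log2 values RPKM, but they are whole multiples of 1 step per library without a length term, so they were read as log2 RPM deposited by the authors, with 0 held at 0.9 read. Reads were recovered by division (at least 99.973% of values within 0.05 of a whole number). The labels give paired-end reads of 150 bases and the methods single-end reads of 50 bases, so a counted unit may be a read or a pair. Counts of the 18 replicate pairs differed beyond sampling (chi-square per degree of freedom of 3.92 or more), so none was a repeat of another. The columns of reads without an informative SNP (18 columns) were not used.

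Genes over 0 on the log2 scale in 3 or more of the compared libraries were tested with limma 3.58.1 (R 4.3.3, intensity trend, 1 mean per group over 18 libraries, or 12 libraries for the sexes), Benjamini-Hochberg adjusted over all genes tested, threshold 0.05. Fold changes against 0 reads use a floor of 3 reads per library. Poisson and Wilson intervals and the floors cover counting error only, while the intervals of fitted differences come from the spread between libraries. Alternatives were 1 RPM added, limma-voom on recovered reads, median centring, other filters, a replicate block, line as a random effect, fewer or more libraries in the fit, and each library left out. Exon lengths and windows came from GENCODE M21. The named genes were the members, up to 3 genes of each list that passed with the largest difference and without overlap, and the 5 genes closest to a profile. The results of 2 genes under this rule are not reported here. Members and lists were chosen with earlier results of these data known.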

Additional observations from a re-analysis of the deposited data

Results flagged for a closer look

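The Dppa2 level in F KSR4 replicate 2 was the lowest of the 6 female KSR-iPSC libraries, and its gap to the next took 0.832 of the whole range, above Dixon's 95% critical value for 6 libraries (4.35 against 6.90 on the log2 RPM scale). The Dppa4 level in the same library was set apart in the same way, with a gap of 0.728 of the range (5.93 against 6.72). The 9 genes were examined in the female and in the male libraries, 18 sets in all, and these 2 were the only ones set apart. The rate of about 1 in 20 per set is no fair comparison here. This library was already to be shown apart before the test. In the female libraries the lowest value of each 2-cell-like gene was at 0 reads, so those sets could hardly be set apart at the low end. The Dppa2 and Dppa4 values both come from 1 library, which was below all 14 other pluripotent libraries at 2953 of 9184 expressed genes. They are therefore not independent of each other or of that library's other genes. The male libraries of both genes were not set apart.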

How the results depend on the processing

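The number of members past the threshold stayed at 3 to 5 against MEFs, at 0 to 1 between TX 2i ESCs and KSR-iPSCs and at 0 between the sexes when each library was left out, and at 1 to 4 over the pairs of groups. The 1 call between TX 2i ESCs and KSR-iPSCs was lost without TX 2i ESCs replicate 2 or 3. Over the pairs it was 1, not 2, without a filter on low values and in a fit of the 15 pluripotent libraries. Dppa2, Dppa4 and Dppa5a stayed higher than MEFs in all fits. In 19 values of single genes the sign changed, none of which had passed the test: 16 with 1 library left out, and Zscan4c between KSR-iPSCs and TX 2i ESCs with 1 RPM added (-0.02), Zscan4c between F KSR2 and F KSR4 by limma-voom (0.06) and Dppa4 between KSR-iPSCs and TX 2i ESCs after median centring (0.01). The cause was not tested. Left-out libraries gave -1.06 to 0.27 for Zscan4c and -0.11 to 0.05 for Dppa4 for KSR-iPSCs minus TX 2i ESCs, and between F KSR2 and F KSR4 -1.52 to 0.47 for Zscan4c, -0.57 to 2.11 for Zscan4d, -0.25 to 1.29 for Dppa2, -0.11 to 0.42 for Dppa4 and -0.37 to 0.04 for Dppa5a. The maternal shares, with alternatives chosen after seeing the data, kept their differences (-9.85 to -9.24, -29.6 to -29.0 and -15.6 to -14.6 percentage points). Deviations of same-numbered libraries had r from -0.197 to 0.382 (median 0.039), over 0.1 in 13 of 45 pairs, against 12 of 90 pairs of other numbers (median -0.0105). Same-numbered pairs were thus over 0.1 more often than the others, though most were not. The main fits did not pair the numbers. With a replicate block the counts were 4, 1, 0 and 3, the last in place of 2 over the pairs of groups. Depth limits the 6 2-cell-like genes, each of which had at most 31 reads in a library.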
